A study of Drosophila melanogaster with 20 samples.

Results

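The vacuolar ATPase (V-ATPase) genes of Drosophila SL2 cells were measured on Affymetrix Drosophila Genome 2.0 arrays after double-stranded RNA (dsRNA) against SPS1 and in untreated cells. Members were the genes whose symbol starts with Vha followed by a digit or a capital letter, each represented by its single-gene probe set with the highest mean. The choice used no treatment difference. It gave 31 genes (32 probe sets) of 11982 genes with a single-gene probe set, and 31 of the 33 genes with such a symbol in the RefSeq gene table. The other two, Vha68-1 and Vha68-2, were not analysed here.

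SL2 is an established embryonic line that resembles blood cells, and SPS1 is a relative of the enzyme that makes selenophosphate. The study asked which genes SPS1 controls directly or secondarily. Plated cells received SPS1 dsRNA in their medium, went into new dishes a day later and were harvested on day 1 (5 samples), day 3 (2 samples) or day 5 (2 samples). Untreated SL2 cells were harvested on day 1 (5 samples), day 3 (2 samples) and day 5 (2 samples). Since the untreated cells were given no dsRNA at all, the effects of SPS1 loss and of dsRNA itself cannot be told apart. No probe set is annotated under the symbol Sps1, and the knockdown itself is not shown here under any other name. The labels call the samples biological replicates without mentioning separate cultures, so the spread behind each p-value may be technical and is that of these samples alone. In bulk RNA, fewer cells of a type and less RNA per cell cannot be told apart.

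V-ATPases are rotary proton pumps. A peripheral V1 sector hydrolyses ATP and turns a central stalk, which turns a ring of proteolipids in the membrane-bound V0 sector and so carries protons into lysosomes, endosomes and secretory vesicles, or out of the cell. In flies many subunits are encoded by several paralogs, of which commonly a single one is used in most tissues and others mainly in the testis or another restricted tissue, and in blood cells the pump acidifies the compartments in which engulfed material is digested.

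The values are log2 intensities after RMA, which summarises the probes of a probe set on each array after background correction and normalization. Array medians lay between 4.53 and 4.69. The probes of each set differ in brightness for equal RNA, so levels of different genes are placed on the array's scale and are not read as amounts. A mean of at least 6 was used to describe a probe set as bright, and 6843 of the 18769 probe sets tested met it. The replicate 1 sample of SPS1 dsRNA at day 5 stood apart from the rest in bright signal. The mean of the 2274 probe sets with a mean log2 of at least 9.5 was 10.69 in it, against 10.75 to 10.83 in the other samples. Day 5 values of the members named below are therefore also given without it.

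The 31 genes fell into a bright and a dim set with nothing between them. The 15 bright members had mean log2 values from 9.60 to 13.53 over the 18 samples, and 16 dim members had means from 3.52 to 5.44. The bright members just inside and the dim members just outside the gap were VhaM9.7-c at 9.60 and Vha16-4 at 5.44. All 13 members listed from background knowledge as widely expressed were bright, against 2 of the 18 others. The list was made with earlier results of these data known, so this match is not an independent check. Of the 14 subunits, the accessory protein included, 13 had a bright member. The catalytic A subunit was the exception, because Vha68-3 was its single paralog measured here.

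In the V1 head, Vha55, the B subunit that forms the ATP-binding ring with A, had a mean log2 of 11.78, and the A paralog Vha68-3 had 3.58. Vha44, the C subunit that holds V1 to V0 and leaves when the pump is disassembled, had 10.83. Vha26, the E subunit of the outer stalks, had 13.53, its partner Vha13, subunit G, had 12.70, and VhaSFD, the regulatory subunit H, had 11.10. The subunits B, C, E, G and H, with 1 gene each, were thus all bright. Of the central stalk genes, Vha36-1 (subunit D) had 11.59 and its paralogs Vha36-2 and Vha36-3 had 4.31 and 4.18. For subunit F, Vha14-1 had 12.23 and Vha14-2 had 3.66.

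In the V0 sector, the large a subunit forms the channels through which protons pass and directs the pump to its membrane. It was the subunit with the most paralogs beside c, and 2 of its 5 were bright. Vha100-2 had a mean log2 of 10.50 and Vha100-1, known in flies for its part in synaptic vesicles of neurons, had 10.27. Vha100-3, Vha100-4 and Vha100-5 had 3.75, 4.23 and 4.36. The proteolipid ring was represented by Vha16-1 (subunit c) at 13.28, with Vha16-2, Vha16-3, Vha16-4 and Vha16-5 at 4.25, 4.20, 5.44 and 4.25, and by VhaPPA1-1 (subunit c″) at 11.96, with VhaPPA1-2 at 4.02. Of the d subunit genes, whose product couples the stalk to the ring, VhaAC39-1 had 11.63 and VhaAC39-2 had 4.76. The small e subunit also had 2 bright genes, VhaM9.7-b at 12.17 and VhaM9.7-c at 9.60, while VhaM9.7-d and VhaM9.7-a had 4.72 and 3.52. VhaAC45, an accessory membrane protein of the pump, had 12.64, and its relative VhaAC45RP had 4.08.

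**Figure D1:**
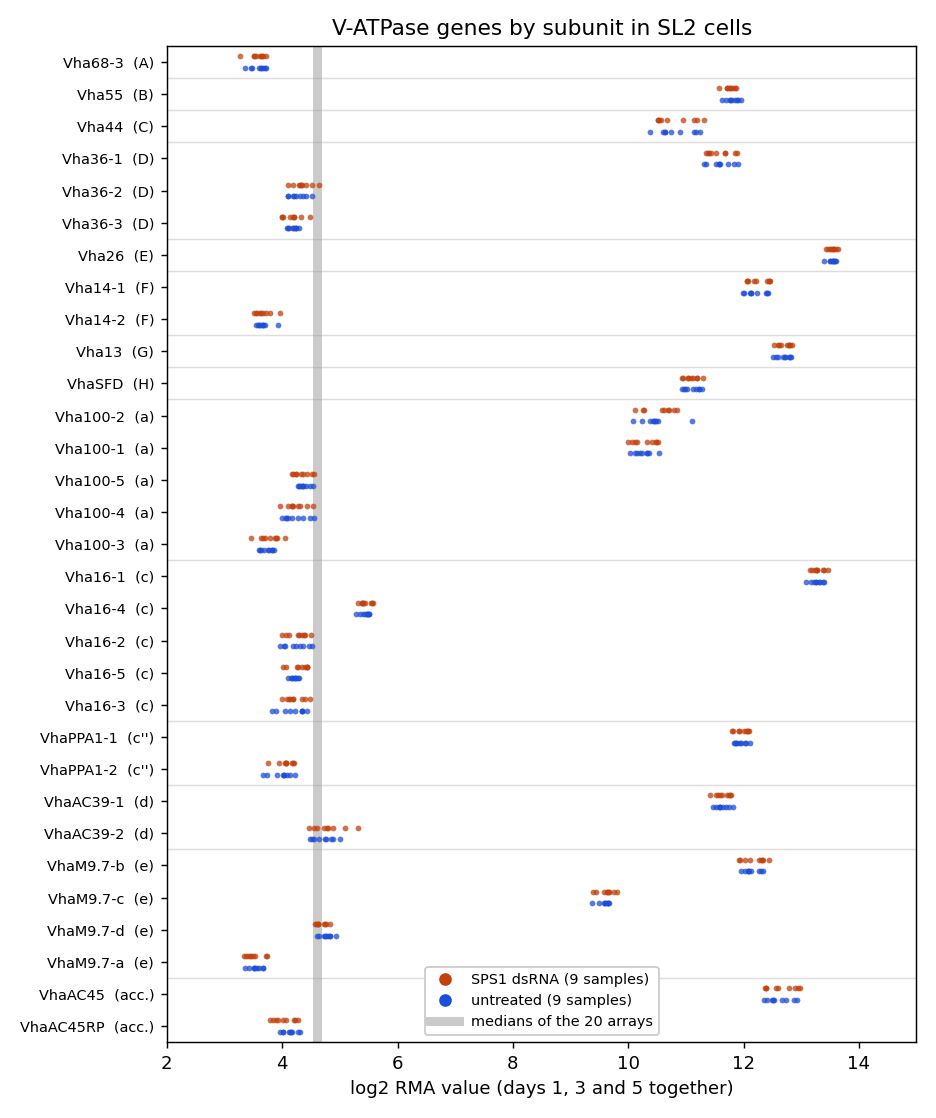
Log2 RMA value (horizontal axis) of each V-ATPase gene, by subunit, in the 9 SPS1 dsRNA samples (upper row of points of each gene) and the 9 untreated samples (lower row), days 1, 3 and 5 together, with the range of array medians as a grey band. No sample of either group has a value between 5.58, in a dim gene, and 9.38, in a bright one.

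Subunits D, F, c, c″, d and the accessory protein each had 1 bright member and at least 1 dim one, which makes 6 of the 14. Paralogs that neighbour each other in the genome were found in the same set or in different ones. By the order of genes in RefSeq (Release 6 plus ISO1 MT assembly), Vha100-2, a bright gene, and Vha100-4, a dim one, had 0 protein-coding genes between them, and VhaPPA1-1 and VhaPPA1-2 had 1. The neighbours Vha16-2 and Vha16-3, with 0 genes between them, were both dim. The probes of 6 members (Vha55, Vha26, Vha44, Vha100-1, Vha100-2 and VhaAC45) carry the suffix _s_at, which marks probes that can match several transcripts, and VhaSFD carries _a_at, which marks probes shared by transcripts of 1 gene.

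Markers of other cells were checked because Vha100-1 is known from neurons and other V-ATPase genes from tubules. Among neuron markers, elav, an RNA-binding protein of neurons, was bright, with a mean log2 of 6.44. The proteins of the presynaptic terminal, brp and nSyb, had 5.78 and 5.07. The 2 muscle, 3 fat body and 2 Malpighian tubule markers measured all lay under 6, from 3.50 to 5.11. Of 10 blood-cell markers, 4 were bright. These were srp, a GATA factor of blood cells, at 10.15, and the engulfment receptors drpr and crq at 9.14 and 8.46. The last, Pxn, a peroxidase of the matrix, had 6.19. Pxn passed 6 mainly through SPS1 dsRNA cells of days 3 and 5, with means of 6.63 and 7.86. Its mean in SPS1 dsRNA cells of day 1 was 5.93. In untreated cells of days 1, 3 and 5 it was 5.96, 6.01 and 5.51. He, NimC1, eater, vkg, Col4a1 and Hml were under 6. The part of these markers in the levels of V-ATPase genes was not tested.

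At day 1 no V-ATPase gene was called different between SPS1 dsRNA and untreated cells. In limma, 0 of 31 members passed an adjusted p of 0.05, against 0% of all probe sets, and 0 had an unadjusted p under 0.05. With samples of the same replicate number treated as a pair (replicate block), both member counts were also 0. The 15 bright members lay within a narrow band, with log2 changes from -0.04 (VhaSFD) to 0.08 (Vha100-2) and a median of -0.02, and 3 of 15 were above 0, against 51.2% of bright probe sets. With 5 samples a group, the 95% intervals of all 15 stayed within 0.5 log2 units of 0, and the outermost bounds were -0.45 and 0.39. The 16 dim members ranged from -0.09 (VhaM9.7-d) to 0.13 (Vha14-2). RMA compresses changes of dim probe sets, so any real change of a dim member can be understated.

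At day 3 the count was again 0 of 31 in limma, against 0.176% of all probe sets, with 0 members at an unadjusted p under 0.05. With the replicate block it was 0, against 1.25% of all probe sets, with 1 member at an unadjusted p under 0.05. The bright members ran from -0.10 (Vha55) to 0.07 (Vha100-1) with a median of -0.01. Of these, 6 of 15 were above 0, against 43.7% of bright probe sets. Intervals were wider with 2 samples a group: 13 of 15 lay within 0.5 log2 units of 0 and all within 1, which is a 2-fold change. The dim members ran from -0.25 (VhaAC45RP) to 0.21 (Vha36-2 and VhaAC39-2).

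At day 5, when 2.79% of all probe sets differed between SPS1 dsRNA and untreated cells, 0 of 31 V-ATPase genes passed in limma. None had an unadjusted p under 0.05, and the lowest adjusted p was 0.44, for VhaPPA1-1. With the replicate block, 1 of 31 passed, VhaAC45, against 12.2% of all probe sets in either direction and 5.07% in the higher one, and 5 had an unadjusted p under 0.05. The members' share of calls was thus not above that of all probe sets in either fit. The dim members ran from -0.24 (Vha68-3) to 0.23 (Vha16-5), with 0 of 16 called.

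VhaAC45, whose product accompanies the pump in its membrane, was the one member whose day 5 call depended on the pairing. Its log2 values on day 5 were 12.60 and 12.94 in SPS1 dsRNA samples and 12.36 and 12.66 in untreated samples. The groups overlapped, and within each replicate number the SPS1 dsRNA sample was the higher, by 0.24 and 0.28. The change was 0.26 log2 units (1.20-fold) with an SE of 0.22 and an adjusted p of 0.73 in limma without the block (95% interval -0.20 to 0.72). With the block the SE was 0.07, the adjusted p 0.040 and the interval 0.10 to 0.42. On day 3 VhaAC45 read 12.57 and 12.98 in SPS1 dsRNA samples, against 12.53 and 12.93 in untreated samples. On day 1 it read 12.90, 12.39, 12.38, 12.40 and 12.79 in SPS1 dsRNA samples and 12.88, 12.40, 12.50, 12.50 and 12.74 in untreated samples. In both groups of day 1, replicates 1 and 5 were high and the other three low. Leaving out 1 sample moved the day 5 change to between 0.09 and 0.43, with 0.43 without SPS1 dsRNA replicate 1 and 0.09 without SPS1 dsRNA replicate 2.

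The next bright members by size of day 5 change were Vha14-1, VhaM9.7-b and VhaPPA1-1, and these did not overlap between the groups. Vha14-1, subunit F of the central stalk, read 12.18 and 12.40 in SPS1 dsRNA samples and 11.98 and 12.14 in untreated samples. Its change was 0.23 with an SE of 0.17 and an adjusted p of 0.68 in limma, and the adjusted p was 0.064 with the block. VhaM9.7-b, a small e subunit of V0, read 12.27 and 12.35 in SPS1 dsRNA samples, against 12.08 and 12.08 in untreated samples. It changed by 0.23 with an SE of 0.16 and adjusted p values of 0.64 in limma and 0.066 with the block. VhaPPA1-1, the c″ proteolipid of the ring, read 12.08 and 12.06 in SPS1 dsRNA samples, against 11.87 and 11.84 in untreated samples. Its change of 0.22 had an SE of 0.11 and adjusted p values of 0.44 in limma and 0.069 with the block. None of the 3 passed, and their changes correspond to 1.17-fold, 1.17-fold and 1.16-fold. Without SPS1 dsRNA replicate 1 the change of Vha14-1 was 0.34, and without SPS1 dsRNA replicate 2 it was 0.12. The change of VhaM9.7-b was 0.26 and 0.19 in these fits and that of VhaPPA1-1 was 0.20 and 0.23.

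On the earlier days these 3 genes showed no separation of the groups. On day 3 Vha14-1 read 12.22 and 12.44 in SPS1 dsRNA samples and 12.24 and 12.43 in untreated samples. VhaM9.7-b read 12.12 and 12.43 in SPS1 dsRNA samples and 12.13 and 12.33 in untreated samples, and VhaPPA1-1 read 11.82 and 12.09 in SPS1 dsRNA samples and 11.94 and 12.12 in untreated samples. In each of the 3 genes replicate 2 exceeded replicate 1 in both groups of that day. On day 1 Vha14-1 read 12.45, 12.06, 12.06, 12.07 and 12.45 in SPS1 dsRNA samples and 12.41, 12.11, 12.13, 12.00 and 12.39 in untreated samples. VhaM9.7-b read 12.31, 12.03, 11.93, 11.94 and 12.32 in SPS1 dsRNA samples and 12.27, 12.10, 12.03, 11.95 and 12.31 in untreated samples. VhaPPA1-1 read 12.00, 11.92, 11.80, 11.92 and 12.04 in SPS1 dsRNA samples and 12.04, 11.95, 11.86, 11.88 and 12.03 in untreated samples. As for VhaAC45, replicates 1 and 5 of day 1 were the high ones in both groups, and the groups overlapped throughout.

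**Figure D2:**
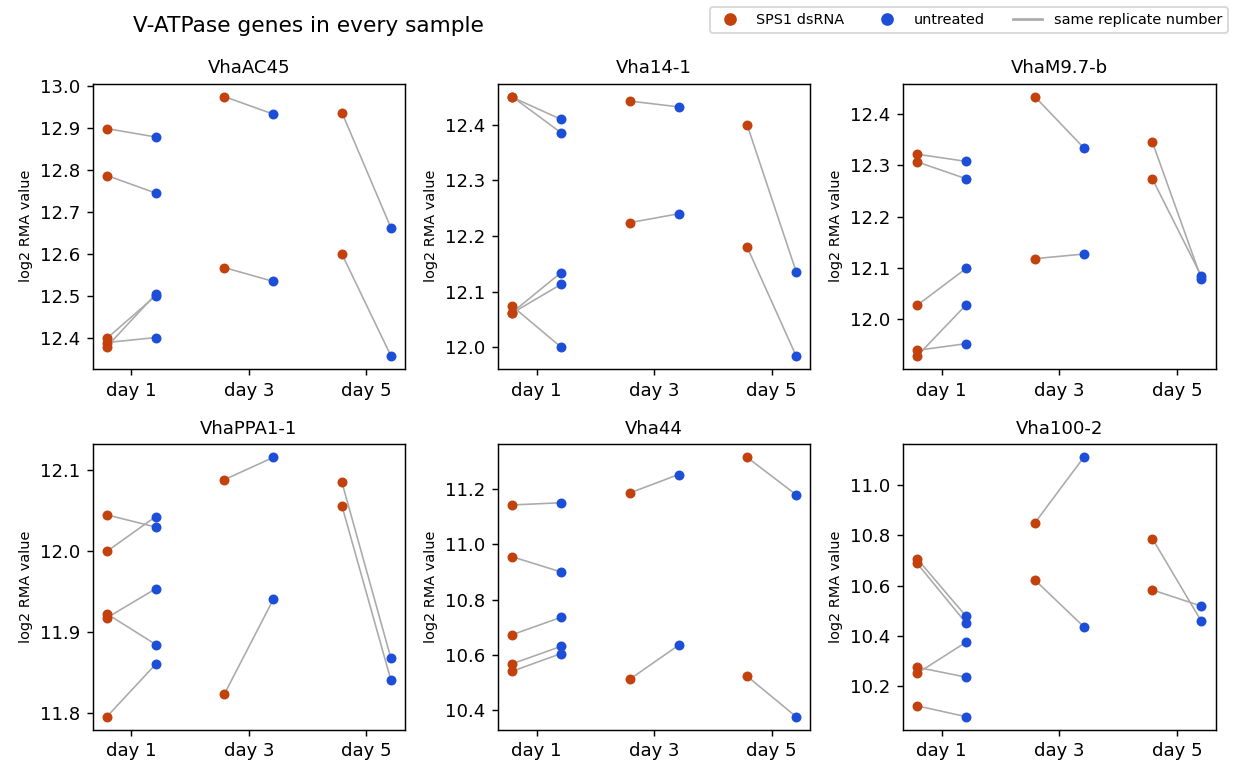
Log2 RMA value (vertical axis, scaled separately for each gene) of 6 V-ATPase genes in every SPS1 dsRNA sample (left of each day) and untreated sample (right), with grey lines joining samples of the same replicate number. On days 1 and 3, Vha44 and VhaAC45 show like values in samples of the same number, and for VhaAC45 the SPS1 dsRNA sample of each day 5 pair is the higher, by 0.24 and 0.28.

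The bright members as a set lay above 0 at day 5 while bright probe sets in general lay below it. Their median log2 change was 0.12, against -0.08 for the 6843 bright probe sets and 0.01 for all probe sets tested, and over all 31 members it was 0.08. Of the 15 bright members, 13 had a change above 0, against 37.2% of bright probe sets. Vha55 at -0.08 and Vha36-1 at -0.01 were the exceptions, and without SPS1 dsRNA replicate 1 they were at -0.01 and 0.13. All 7 bright V0 genes were above 0, from 0.08 (Vha16-1) to 0.23, with a median of 0.13, and 5 of the 7 bright V1 genes were, with a median of 0.07. In 5 of 15 (Vha100-2, Vha14-1, VhaAC39-1, VhaM9.7-b and VhaPPA1-1) both SPS1 dsRNA samples exceeded both untreated samples, against 16.5% of bright probe sets, and in 0 of 15 both lay below, against 32.6%.

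This lean rested on the samples of day 5. The number of bright members above 0 was 14 without SPS1 dsRNA replicate 1, the sample that stood apart, and 9 without SPS1 dsRNA replicate 2. It was 8 without untreated replicate 1 and 15 without untreated replicate 2. Bright probe sets moved with the same samples: 52.8% were above 0 without SPS1 dsRNA replicate 1 and 27.5% without SPS1 dsRNA replicate 2, 31.9% without untreated replicate 1 and 45.4% without untreated replicate 2. Leaving out 1 sample also broke its same-numbered pair, so the replicate number enters these counts. Within same-numbered pairs, 11 of 15 bright members were above 0 in pair 1, 14 in pair 2 and 11 in both. The share of all bright probe sets within pairs is not given here. Subtracting each array's median left 11 of 15 above 0, against 27.7% of bright probe sets, and cyclic loess scaling left 14 of 15, against 49.5%. The median of the bright members stayed above 0 under every alternative tried, from 0.01 to 0.19.

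**Figure D3:**
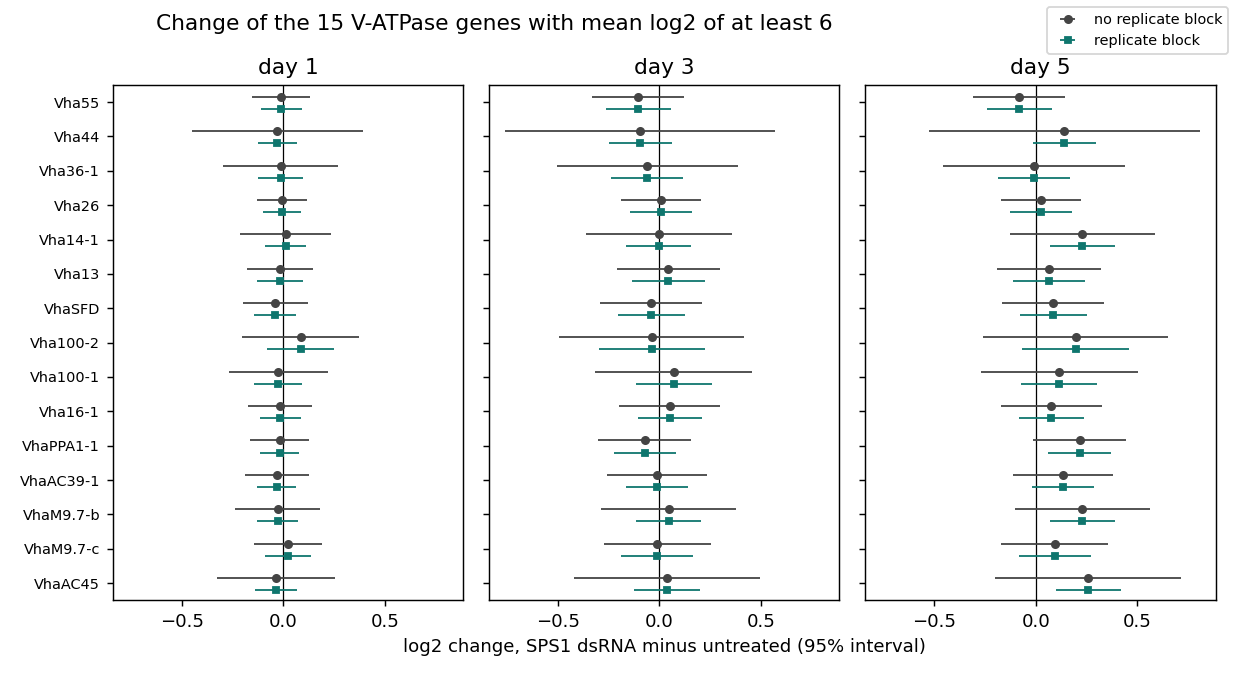
Log2 change, SPS1 dsRNA minus untreated (horizontal axis), of the 15 bright V-ATPase genes at days 1, 3 and 5, with 95% intervals from limma without (circles) and with (squares) the replicate block. At day 5 most points lie right of 0, and the intervals of VhaAC45, Vha14-1, VhaM9.7-b and VhaPPA1-1 clear 0 with the block only, before any adjustment for multiple tests.

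The intervals set the size of change these data leave room for. At day 5 without the block, bounds of the 15 bright members ran from -0.52 to 0.81 log2 units, that is from a 1.44-fold lower to a 1.75-fold higher level in SPS1 dsRNA cells, with both bounds set by Vha44. All 15 intervals lay within 1 log2 unit of 0, and 9 of 15 within 0.5, or 1.41-fold. With the block the bounds ran from -0.24 to 0.46.

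Comparing the days directly, 0 of 31 members had a change that differed between days in limma. This held for day 3 against day 1 (0.0213% of all probe sets), day 5 against day 1 (1.4%) and day 5 against day 3 (0.0959%). At an unadjusted p under 0.05 the first of these counted 1 member. With the block the counts were also 0, against 0.336%, 6.82% and 1.2% of all probe sets, with 0, 5 and 3 members at an unadjusted p under 0.05, and the lowest adjusted p was 0.069, for VhaAC45 at day 5 against day 1, where the difference was 0.29 log2 units. In untreated cells, 0 of 31 members differed on day 3 from day 1 (0.107% of all probe sets) or on day 5 from day 1 (0.186%), with 2 and 1 members at an unadjusted p under 0.05. Vha100-2 had the largest of these, 0.45 log2 units at day 3 over day 1 (SE 0.18, adjusted p = 0.64), which exceeds any change of a bright member with SPS1 dsRNA. In SPS1 dsRNA cells, 0 of 31 differed on day 5 from day 1, against 3.29% of all probe sets, with 1 member at an unadjusted p under 0.05. These comparisons share samples with those within days.

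The bright V-ATPase genes varied with the replicate number in both groups. The mean log2 of the 15 bright members in replicates 1 to 5 of day 1 was 11.85, 11.58, 11.60, 11.60 and 11.79 in SPS1 dsRNA cells and 11.82, 11.63, 11.65, 11.60 and 11.77 in untreated cells. On day 3 it was 11.65 and 11.90 in SPS1 dsRNA cells and 11.68 and 11.90 in untreated cells. On day 5 it was 11.71 and 11.89 in SPS1 dsRNA cells, against 11.61 and 11.75 in untreated cells. Same-numbered samples of a day thus had like means in both groups, with the widest gap between groups on day 5. The labels do not say what the number marks.

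Vha44, the C subunit, carried this pattern most. On day 1 it read 11.14, 10.57, 10.67, 10.54 and 10.96 in SPS1 dsRNA cells and 11.15, 10.63, 10.74, 10.60 and 10.90 in untreated cells. On day 3 it read 10.51 and 11.18 in SPS1 dsRNA cells, against 10.64 and 11.25 in untreated cells. On day 5 it read 10.52 and 11.31 in SPS1 dsRNA cells, against 10.38 and 11.18 in untreated cells. Its SD within groups, pooled over the 6 groups, was 0.36, the widest of the members, and Vha26 had the narrowest, 0.07. The day 5 change of Vha44, 0.14, had an SE of 0.31 without the block and 0.07 with it. It was 0.54 without SPS1 dsRNA replicate 1 and -0.26 without SPS1 dsRNA replicate 2, while within the same-numbered pairs it was 0.146 and 0.135. It was called neither without nor with the block.

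Vha100-2, one of the bright a subunits, had a pooled SD of 0.24. It read 10.71, 10.12, 10.28, 10.25 and 10.69 on day 1 in SPS1 dsRNA cells and 10.48, 10.08, 10.24, 10.38 and 10.45 in untreated cells. On day 3 it read 10.62 and 10.85 in SPS1 dsRNA cells, against 10.44 and 11.11 in untreated cells. On day 5 it read 10.79 and 10.58 in SPS1 dsRNA cells, against 10.46 and 10.52 in untreated cells. The day 5 groups did not overlap, and the change of 0.20 had adjusted p values of 0.82 in limma and 0.35 with the block. It was 0.09 without SPS1 dsRNA replicate 1 and 0.30 without SPS1 dsRNA replicate 2.

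For the proteolipid Vha16-1, a second probe set with a mean log2 of 12.52 gave a day 5 change of 0.15 (SE 0.13, adjusted p = 0.75), beside 0.08 (SE 0.12, adjusted p = 0.89) from the one used. In the 2 technical arrays of day 3, the bright members differed from biological replicate 2 of their group by -0.15 to 0.23 log2 units in SPS1 dsRNA cells and by -0.11 to 0.16 in untreated cells, which spans all day 3 changes of bright members.

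The mitochondrial ATP synthase, the rotary relative of the V-ATPase that runs in the direction of ATP synthesis, served for comparison. Of its 14 genes measured, 10 were bright, and 0 of 14 were called at day 1, 3 or 5 in limma, with or without the block. At day 5 its median log2 change over all 14 genes, dim ones included, was -0.03, and -0.01 without SPS1 dsRNA replicate 1. The largest among its bright genes was that of ATPsynC, which encodes the c ring of the synthase, at -0.20 (SE 0.10, adjusted p = 0.42). The difference between the sets was not tested.

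**Figure D4:**
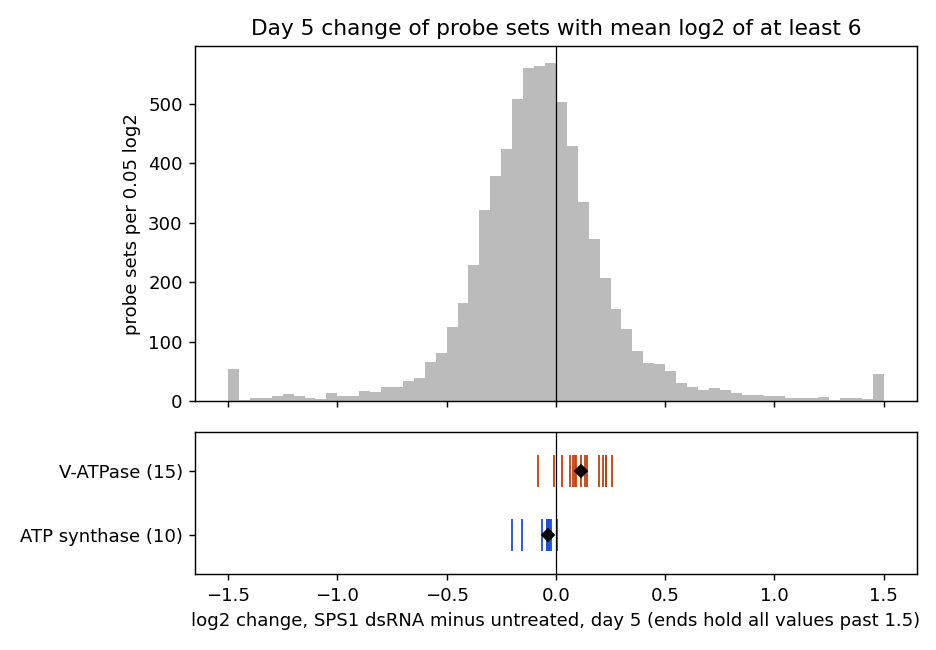
Day 5 log2 change, SPS1 dsRNA minus untreated (horizontal axis), of the 6843 bright probe sets as a histogram in steps of 0.05 (upper panel, vertical axis in probe sets), and of the 15 bright V-ATPase and 10 bright ATP synthase genes as ticks with their medians as diamonds (lower panel). The V-ATPase ticks run from -0.08 to 0.26, and 13 of 15 lie right of 0, while the histogram has its median at -0.08.

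Genes that work with the pump were counted in the same fit. Of the assembly and accessory factors, 0 of 3 measured were called on any day: ATP6AP2, the prorenin receptor homologue, Rbcn-3B, part of the complex that assembles V1 on V0, and mtd, a TLDc-domain protein. At day 5 their log2 changes were 0.06, -0.07 and 0.07, and 0.05, 0.24 and 0.105 without SPS1 dsRNA replicate 1. Of 6 lysosomal membrane and ion channel genes, 0 were called between SPS1 dsRNA and untreated cells. With the block ClC-b, a chloride transporter of the family that balances proton transport, passed at day 5 with 0.31 (adjusted p = 0.026, against 0.25 without the block). Its relatives ClC-a and ClC-c changed by -0.30 and -0.34 and were called neither with nor without the block. Without SPS1 dsRNA replicate 1 they were at 0.31 and 0.001. Of 8 genes of the lysosomal docking site of the TORC1 kinase and its transcription factor Mitf, 0 were called, and with the block Lamtor5, a subunit of the docking complex, passed at day 5 with 0.27 (adjusted p = 0.045, against 0.73 without the block). With the block, 12.2% of all probe sets were called at day 5 in either direction and 5.07% in the higher one. ClC-b was at 0.28 and Lamtor5 at 0.41 without SPS1 dsRNA replicate 1, and at 0.34 and 0.13 without SPS1 dsRNA replicate 2, not called in either fit. Mitf, which in flies activates V-ATPase genes, had a mean log2 of 3.87, under every array median, and a day 5 change of -0.04 (SE 0.19, adjusted p = 0.97).

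At day 5, 3 of 10 blood-cell markers were higher in limma, against 1.19% of all probe sets in that direction: Pxn by 2.35 and drpr by 1.21 log2 units, and eater, a phagocytic receptor, by 3.28. The untreated mean of eater on day 5, 3.85, lay under every array median, so its difference can be understated. With the block 5 of 10 were higher, against 5.07% of all probe sets. Without SPS1 dsRNA replicate 1, the changes of Pxn, drpr and eater were 2.57, 1.34 and 3.81. With all samples, drpr passed narrowly in limma, with an adjusted p of 0.048. The summed intensity of the 10 markers on the linear scale was 2654 to 3771 in SPS1 dsRNA samples and 1771 to 2462 in untreated samples of day 5. On day 3 it was 2690 to 3172 in SPS1 dsRNA samples and 2209 to 2389 in untreated samples, and on day 1 the groups overlapped. The sums of the 3 neuron markers on day 5 were 155 to 169 in SPS1 dsRNA samples and 180 to 192 in untreated samples, and those of the 2 muscle markers 26.6 to 26.7 in SPS1 dsRNA samples and 26.9 to 28.5 in untreated samples. The blood-cell sums were thus the higher in SPS1 dsRNA samples on days 3 and 5, with no overlap of the groups. Such a sum weighs the brightest markers most, which were srp, drpr and crq. On day 5 the neuron and muscle sums were the lower without overlap, while the fat body and tubule sums overlapped. Of the neuron markers, elav changed by -0.40 at day 5, while brp and nSyb changed by 0.04 and 0.02. With 2 samples a group such separation is common. At day 5 it held for 16.5% of bright probe sets in the higher direction and 32.6% in the lower. At day 3 it held for 636 of the 6843 bright probe sets in the higher direction and 988 in the lower. Both muscle markers, Act88F and up, lay under every array median and changed by -0.03 and -0.10. Of the blood-cell markers, 9 of 10 were above 0 at day 5, and crq was at -0.22. At days 1 and 3, 0 of 10 were called. Of the neuron, muscle, fat body and tubule markers, 0 were called at day 5. The part of these markers in the V-ATPase values was not tested.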

How the data were processed

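RNA of 18 SL2 samples was measured on 20 arrays. The authors deposited log2 values made with RMA, per the submitters' processing notes, with no version named. The deposited table of 18952 probe sets was used without further scaling, 183 control probe sets were left out, and the number of arrays limits the precision. The 2 technical arrays of day 3 were averaged with replicate 2 of their group. Groups came from the titles, because the source field of the day 5 SPS1 dsRNA samples reads as untreated. Genes were named from the platform annotation, with 31 of 31 members matching RefSeq symbols by Entrez identifier.

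A single linear model over the 6 groups was fitted with limma 3.58.1 in R 4.3.3 (12 residual and 4.26 prior degrees of freedom), with Benjamini-Hochberg adjustment over all 18769 probe sets and 95% intervals from the moderated statistic. Calls required an adjusted p under 0.05. The fit was tested on simulated data.

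Same-numbered samples of a day deviated from their group means together. Over probe sets with a mean log2 of at least 6, the correlation of these deviations was 0.69 to 0.84 for the 5 same-numbered pairs of day 1. Differently numbered samples of day 1 had -0.70 to 0.61. On day 3 the same-numbered value was 0.78 and on day 5 it was 0.71. With 2 samples a group, the deviations of a group mirror each other, so days 3 and 5 give 1 value each and only its sign bears on the pairing. On day 1 the numbers thus pair the samples. The labels do not say why. The replicate block fit takes each day's number as a block (6 residual df), and its values stand beside results that it changes.

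Members, subunit roles and gene lists were chosen with earlier results of these data known. Every member is named. Values in every sample are given for members called with or without the block, for those with the largest day 5 change among bright members, and for Vha44 and Vha100-2, which were chosen after their spread was seen. Partner genes are named where called, and other names were added after their values were seen. The alternatives tried were the replicate block, each sample left out in turn, cyclic loess, array medians subtracted, samples of 1 day only, bright probe sets only, other treatments of the technical arrays, means over probe sets and a trended robust prior. No coordinates are given, since no source names the build of the array design.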

Additional observations from a re-analysis of the deposited data

Results flagged for a closer look

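In a check for single samples far from their group, made over the 62 sets of day 1 values of the 31 members, 1 stood out. Chance alone marks about 1 in 20 such sets, which is a larger share. Vha55, the B subunit of the V1 head, read 11.57 in replicate 5 of SPS1 dsRNA at day 1, against 11.75 to 11.81 in the other 4 samples of that group. In untreated cells of day 1 replicate 5 was also the lowest for Vha55, at 11.62, with the other samples from 11.70 to 11.85.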

How the results depend on the processing

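The counts of V-ATPase genes called kept their value under the alternatives run, with 1 exception: the day 5 count was 1 with the replicate block and 0 without it. The block changed no other call of a member than that of VhaAC45. Leaving out each sample in turn gave a day 5 count from 0 to 0. The median day 5 change of the bright members ranged from 0.01 to 0.19, that of day 3 from -0.11 to 0.09 and that of day 1 from -0.05 to 0.01, over the alternatives. The sign differed in 15 of 405 values of bright members at day 5, 35 of 405 at day 3 and 41 of 405 at day 1, none of them called, and these include Vha44 and Vha100-1 at day 5, which were -0.26 and -0.07 without SPS1 dsRNA replicate 2. Subtracting array medians moved the day 5 median of all probe sets to -0.05. With 2 samples a group at days 3 and 5, single intervals reached 0.81 log2 units, so small changes may have gone undetected. Where 1 sample was left in a group, it was assumed to vary like the other groups.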
